A study of Mus musculus with 32 samples.

Results

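Ion channel genes of the voltage-gated and related families were followed in lung RNA of 16 mice. The set takes every gene whose symbol begins with Kcn, Scn, Cacn or Hcn, plus Nalcn, that carries its own Ensembl identifier in the deposited table and lies above 0 FPKM in at least 3 mice. FPKM counts sequenced fragments relative to transcript length and library size, and levels on this scale can be compared between genes of different length. The GENCODE M21 annotation holds 146 such genes, 72 of them have an own identifier in the table, and 55 met the detection rule. All 55 are protein coding. They are 55 of 8288 annotated genes with the same detection, 26305 annotated genes and 54640 features in all. The rule used detection in any mice and made no use of the groups. The 74 genes of these families without an own identifier have no value under their own name here. Among them are all 3 subunit genes of the epithelial sodium channel.

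These channels are membrane proteins that let potassium, sodium or calcium ions cross the membrane, most of them when the membrane voltage changes. The pore is built by alpha subunits, and auxiliary subunits set how fast it opens, closes and reaches the cell surface. In the lung, potassium channels of vascular smooth muscle set the tone of the pulmonary arteries, potassium channels of the epithelium support fluid transport, and sodium channels carry the impulses of the airway nerves.

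The mice were male wild-type C57BL/6J animals, 6 to 8 weeks old when obtained, in 4 groups of 4. Control mice were unexposed and untreated. WTCPM mice had World Trade Center particulate matter, settled dust gathered at Ground Zero, instilled through the nose. Rosoxacin mice had the dust and the quinolone antibiotic rosoxacin at 5 mg/kg into the peritoneum, and dexamethasone mice had the dust and the synthetic glucocorticoid dexamethasone at 0.1 mg/kg by the same route. No group had a drug without dust, so each drug is compared among exposed mice. The sources used here do not give the interval between dust, drug and tissue collection.

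The values of 1 mouse are the mean of its 2 sequencing lanes. Read counts are not part of the files, but FPKM values of genes with 1 transcript fall on regular steps, and the step gives an estimated depth of 17500000 to 27900000 read pairs per mouse. Control mice had 24400000 ± 3950000 (SD, n = 4), WTCPM mice 19900000 ± 1200000, rosoxacin mice 19500000 ± 1030000 and dexamethasone mice 22300000 ± 4630000. The 28335 loci without a gene name hold almost all FPKM, the annotated genes hold 0.114% of it, and no annotated gene has a mean above 4.05 FPKM. Of 23 lung epithelium markers 2 have an own identifier, and none of the smooth muscle, macrophage, lymphocyte or erythroid markers has one. The labelled tissue could therefore not be checked on its defining genes, and in whole tissue fewer cells of a type and less RNA per cell cannot be told apart.

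The members are the family genes that the table lists outside the unnamed loci, so their levels say nothing about the 74 family genes without an own identifier. Of the 55 members 53 have each of their GENCODE M21 transcripts in the table, and Kcnk4 and Kcng3 have 1 of 7 and 1 of 2. The members with a value were low. The mean level over the 16 mice ranged from 0.00226 FPKM for Cacna1f to 1.23 FPKM for Kcnab1, with a median of 0.0819 FPKM. The median was 0.0481 FPKM for all annotated genes with the same detection. The channel genes made up 0.762% of the FPKM of annotated genes. Of the 55 genes 29 were above 0 in all 16 mice, and 24 reached the mean of 0.1 FPKM that was required for a test. Just inside the detection rule were Cacng1, at 0.0153 FPKM, and Cacna1f, both above 0 in 3 mice. Of the 17 genes left out 8 were above 0 in 1 or 2 mice, Kcnv1 among them with 2 mice, and 9 were listed at 0 in all mice.

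**Figure D1:**
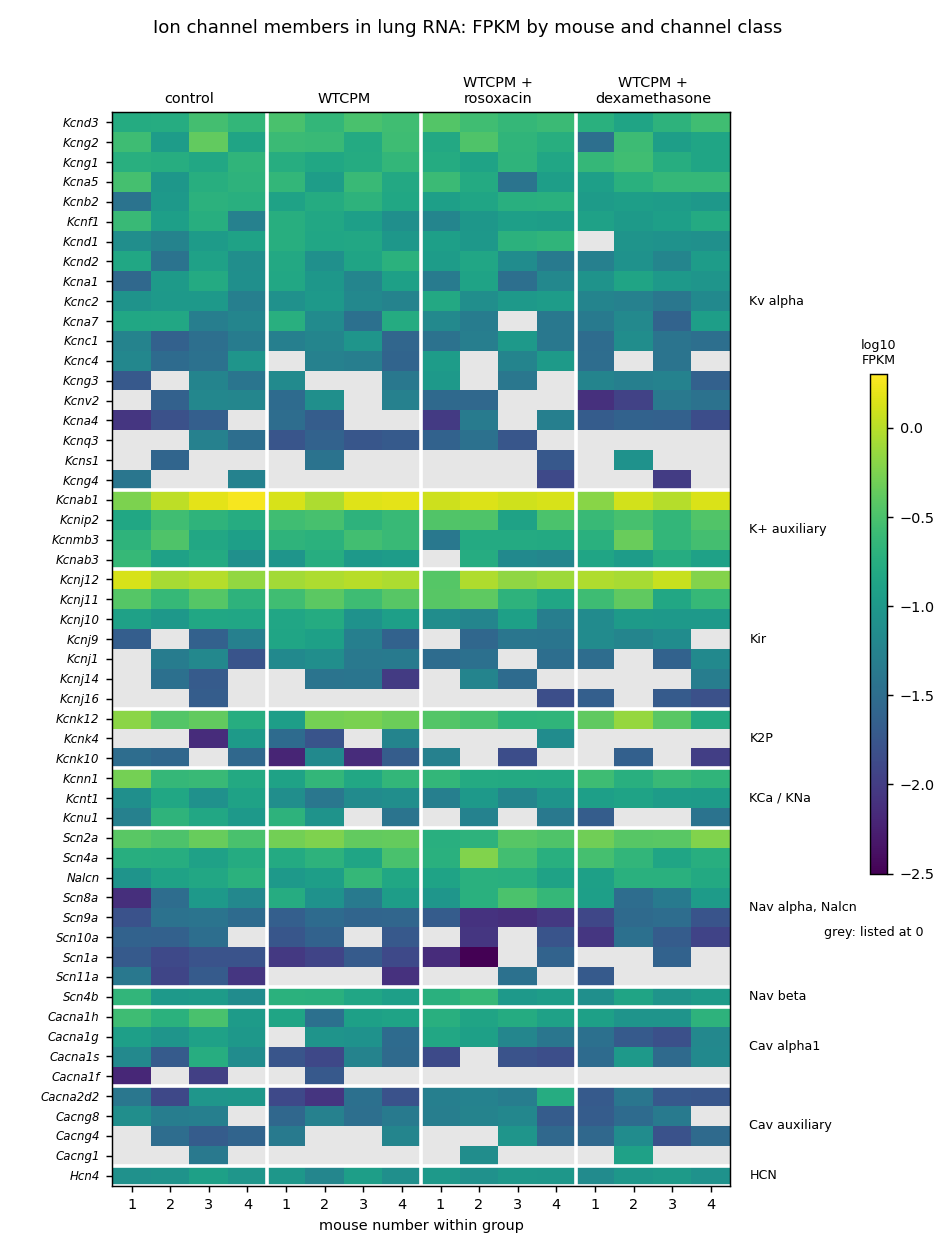
FPKM of 54 of the 55 ion channel genes (rows, grouped by channel class and ordered by mean) in each of the 16 mice (columns), on a log10 colour scale with values listed at 0 in grey. Kcnab1 and Kcnj12 are the brightest rows in all 4 groups, and 26 of the 54 genes are listed at 0 in at least 1 mouse.

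Potassium channel auxiliary subunits held the most abundant gene. Kcnab1 encodes a cytosolic beta subunit that binds voltage-gated potassium channels and speeds their inactivation (ENSMUSG00000027827.16, chr3:65109384-65378223, plus strand, mm10). Its level was 0.561, 1.06, 1.53 and 1.81 FPKM in the 4 control mice, 1.34, 0.913, 1.46 and 1.53 in WTCPM, 1.21, 1.43, 1.25 and 1.37 with rosoxacin and 0.632, 1.28, 0.981 and 1.39 with dexamethasone. The control mice spanned the widest range and all other groups lay inside it. Kcnip2, a calcium-binding partner of the Kcnd channels, had 0.256 FPKM (0.130 to 0.350), and Kcnmb3, a beta subunit of the large-conductance calcium-activated channel, had 0.215 FPKM (0.0422 to 0.456). Kcnab3, a second beta subunit of voltage-gated channels, had 0.121 FPKM and was listed at 0 in rosoxacin mouse 1. The exons of Kcnab1 and Kcnab3 overlap noncoding genes on the other strand, and the sources used here do not say whether the counting used strand. Among all members 12 have exons that overlap another gene, and 6 of these were tested. The annotation holds 19 genes of this class. The summed level of the 4 members was 1.80 ± 0.460 FPKM in control, 1.92 ± 0.238 in WTCPM, 1.81 ± 0.246 with rosoxacin and 1.78 ± 0.459 with dexamethasone (SD over 4 mice).

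Inward rectifiers, which hold the resting membrane near the potassium potential, were led by Kcnj12 (ENSMUSG00000042529.14, chr11:61022564-61071131, plus strand). Its level was 1.35, 0.852, 0.980 and 0.702 FPKM in control, 0.824, 0.895, 1.00 and 0.896 in WTCPM, 0.361, 0.927, 0.690 and 0.769 with rosoxacin and 0.914, 0.863, 1.16 and 0.602 with dexamethasone. Control mouse 1 was the highest and rosoxacin mouse 1 the lowest, and all groups overlapped. Kcnj11, the pore of the ATP-sensitive potassium channel, had 0.293 FPKM (0.143 to 0.413), and Kcnj10, known from glia and kidney, had 0.107 FPKM (0.0499 to 0.167). Kcnj9, Kcnj1, Kcnj14 and Kcnj16 lay between 0.0465 and 0.00589 FPKM and were each listed at 0 in some mice. The annotation holds 15 genes of this class. The 7 members summed to 1.47 ± 0.334 FPKM in control, 1.53 ± 0.111 in WTCPM, 1.123 ± 0.278 with rosoxacin and 1.36 ± 0.199 with dexamethasone.

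Voltage-gated potassium alpha subunits were the largest class, with 19 of 25 genes with an own identifier meeting the rule and 8 tested. The highest were Kcnd3 at 0.245 FPKM (0.135 to 0.357), Kcng2 at 0.208 (0.0334 to 0.429) and Kcng1 at 0.182 (0.133 to 0.273). Kcnd genes encode fast-inactivating A-type channels, and Kcng genes encode subunits that form no channel alone and modify Kcnb channels. Kcna5, a channel of pulmonary artery smooth muscle, had 0.179 FPKM (0.0383 to 0.297), and Kcnb2, a delayed rectifier, had 0.139 FPKM. All 3 Kcnd genes were tested, with Kcnd1 at 0.114 and Kcnd2 at 0.102 FPKM. At the low end, Kcnq3, a subunit of the M-type channel, was listed at 0 in all 4 dexamethasone mice and was above 0 in 2 control, 4 WTCPM and 3 rosoxacin mice. It was picked out after its values were seen, and the share of all genes with such a split was not determined. The annotation holds 40 genes of this class. The 19 members summed to 1.80 ± 0.371 FPKM in control, 1.96 ± 0.193 in WTCPM, 1.77 ± 0.130 with rosoxacin and 1.51 ± 0.240 with dexamethasone. The 4 dexamethasone sums (1.20 to 1.76) all lay below the 4 WTCPM sums (1.82 to 2.23), and the other pairs of groups overlapped.

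Kcnk12, a 2-pore-domain channel of the halothane-inhibited subfamily, was the fourth most abundant gene at 0.376 FPKM. Its level ranged from 0.174 to 0.654 FPKM in control, 0.117 to 0.542 in WTCPM, 0.207 to 0.353 with rosoxacin and 0.159 to 0.722 with dexamethasone. The other 2 members of this class, the mechanosensitive channels Kcnk4 and Kcnk10, had 0.0182 and 0.0181 FPKM. The class named for calcium- or sodium-activated potassium channels was formed by gene symbol and takes in Kcnu1, whatever opens its channel. In it, the small-conductance channel Kcnn1 had 0.219 FPKM (0.131 to 0.513), the sodium-activated channel Kcnt1 0.0927 FPKM and Kcnu1, known from sperm, 0.0628 FPKM. The annotation holds 8 genes of this class. The 3 members summed to 0.528 ± 0.113 FPKM in control, 0.332 ± 0.0806 in WTCPM, 0.277 ± 0.0426 with rosoxacin and 0.362 ± 0.0378 with dexamethasone. The control sums (0.391 to 0.646) all lay above the rosoxacin sums (0.219 to 0.321) and overlapped the other groups. Kcnn1 of control mouse 1, at 0.513 FPKM, was the highest value of that gene in any mouse.

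All 8 sodium channel genes with an own identifier met the rule. The most abundant were Scn2a at 0.397 FPKM, a channel of the axon initial segment of central neurons, and Scn4a at 0.222 FPKM, the channel of skeletal muscle. The leak channel Nalcn had 0.154 FPKM (0.0892 to 0.233) and Scn8a, the channel of the nodes of Ranvier, 0.110 FPKM. The channels best known from peripheral sensory neurons were lower, with 0.0225 FPKM for Scn9a, 0.0151 for Scn10a and 0.00910 for Scn11a. The beta subunit gene Scn4b had 0.138 FPKM (0.0731 to 0.236). The annotation holds 11 genes for sodium alpha subunits and Nalcn. The 8 members among them summed to 0.810 ± 0.0842 FPKM in control, 1.00 ± 0.0801 in WTCPM, 0.989 ± 0.271 with rosoxacin and 0.961 ± 0.125 with dexamethasone. The rosoxacin mice had the widest range (0.625 to 1.20).

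Of the calcium channel genes, 4 of 10 for pore subunits and 8 of 16 for auxiliary subunits have an own identifier. The T-type channel gene Cacna1h, whose channel opens at low voltage, had 0.153 FPKM and was the one member of its class tested. Its relative Cacna1g had 0.0716 FPKM, and the L-type genes Cacna1s of skeletal muscle and Cacna1f of the retina had 0.0450 and 0.00226 FPKM. The 4 pore genes summed to 0.418 ± 0.159 FPKM in control, 0.193 ± 0.0512 in WTCPM, 0.259 ± 0.0696 with rosoxacin and 0.216 ± 0.0864 with dexamethasone. All 4 control sums (0.281 to 0.623) lay above all 4 WTCPM sums (0.154 to 0.264), and the control sums overlapped those of both drug groups. The auxiliary genes Cacna2d2, Cacng8, Cacng4 and Cacng1 had 0.0460, 0.0388, 0.0278 and 0.0153 FPKM, and none reached the level for a test. This class was also formed by gene symbol, whatever channel each product joins. The pacemaker channel gene Hcn4, whose channel opens when the membrane hyperpolarises, had 0.0924 FPKM. Class sums were not tested. The separations of class sums given above are those found among all classes and all pairs of groups. Of all single genes tested, 3.02% did not overlap between WTCPM and control. That share was 4.07% for dexamethasone against WTCPM and 11.2% for rosoxacin against control.

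Few read pairs stood behind these values. For the 13 members with a single transcript, the depth and length give an estimate of the read pairs per mouse. Counts were not recovered and fractions of a pair occur, so the counting error given here is approximate. Kcnk12 rested on 16.1 pairs per mouse (4.51 to 30.3), Scn4b on 14.5 and Kcnmb3 on 7.91 (1.5 to 15.5). Cacng1 and Kcns1 rested on less than 1 pair per mouse, with 0.381 and 0.557. The spread between mice of a group, as a coefficient of variation, was above the counting error of that many pairs in 11 of the 13. It was 49.3% against 24.9% for Kcnk12 and 38.8% against 35.5% for Kcnmb3. The exceptions were Kcnj10, with 25.9% against 28.3%, and Hcn4, with 19.02% against 28.6%. Over the 24 tested genes the spread between mice of a group was 20.9% to 56.2%, with a median of 36.9%.

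**Figure D2:**
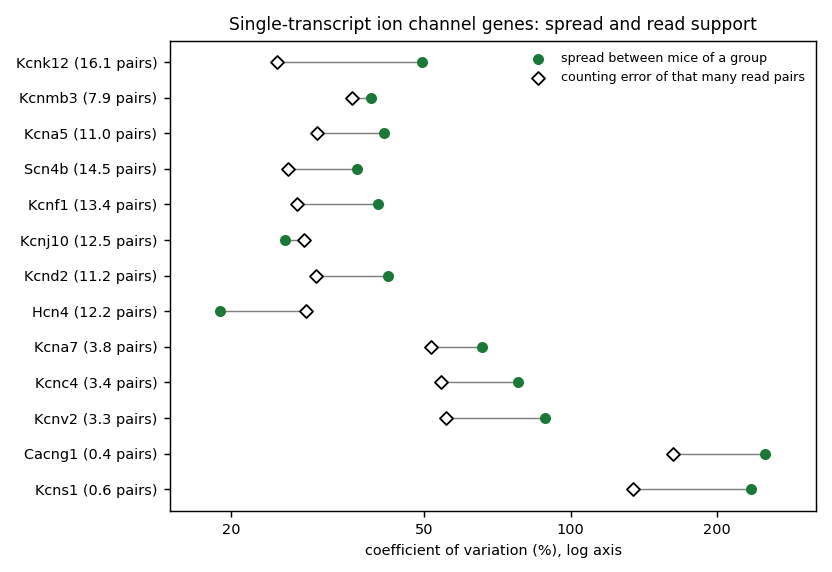
Coefficient of variation (log axis, %) of the 13 single-transcript members: filled points give the spread between mice of a group, open diamonds the counting error of the estimated read pairs, whose mean per mouse stands beside each name. The filled point lies to the right of the diamond in 11 of 13 genes.

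Between 42 and 52 of the 55 genes were above 0 in a single mouse. The highest number, 52, was in control mouse 3, which was also the deepest mouse at 27900000 read pairs, and 42 were found in WTCPM mouse 3 and in rosoxacin mice 1 and 3. A value of 0 at this depth is a gene that was not detected, not one that is absent. The summed level of all members per mouse was 7.79 ± 0.946 FPKM in control, 7.98 ± 0.184 in WTCPM, 7.21 ± 0.717 with rosoxacin and 7.09 ± 0.818 with dexamethasone (SD over 4 mice), and the ranges of the 4 groups overlapped.

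**Figure D3:**
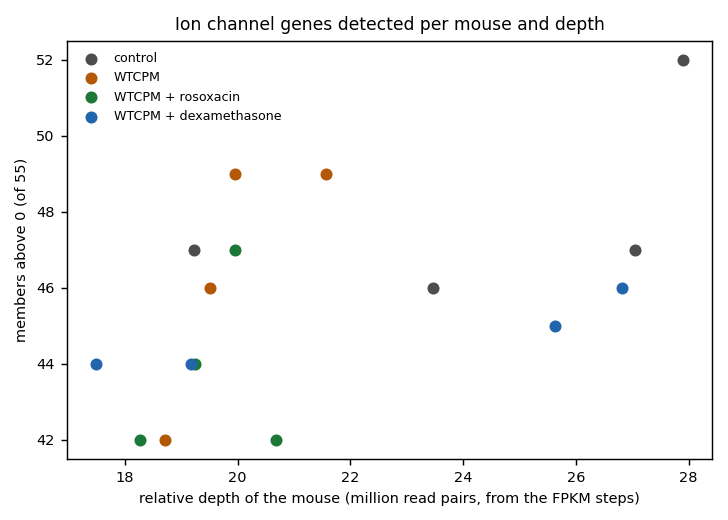
Number of ion channel genes above 0 (of 55) against the estimated depth in read pairs, 1 point per mouse, coloured by group. The deepest mouse, a control, shows 52 genes, and the 4 WTCPM mice, within 18700000 to 21600000 read pairs, show 42 to 49.

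No ion channel gene passed the test in any of the 6 comparisons between groups. The test was limma on log2(FPKM + 0.1) over 2749 annotated genes, with an adjusted p of 0.05 as the threshold. Differences below are log2 differences on that scale, which understates the change of low genes. The p-values set a difference between groups against the spread between mice of a group, estimated from the 4 groups in 1 fit. For the 24 tested channel genes the standard error was 0.21 to 0.39, and the 95% interval of a difference reached a median of 0.58 to either side, which is 1.49-fold. Over the members this half-width was 0.44 to 0.83, without adjustment for the number of genes. Of the 24, Scn8a and Kcnd1 reached the mean required for a test only through the rosoxacin group and Kcnd2 only through the WTCPM group. In the other 12 mice the means were 0.0773, 0.0998 and 0.0891 FPKM.

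The first comparison asks what dust exposure does, and here the largest member difference belonged to a calcium channel. Cacna1h (ENSMUSG00000024112.16, chr17:25374285-25433783, minus strand) had 0.271, 0.194, 0.311 and 0.109 FPKM in control mice and 0.140, 0.0341, 0.123 and 0.135 in WTCPM mice. Control mice 1 and 3 were the highest and WTCPM mouse 2 the lowest, and the groups overlapped through control mouse 4. The mean was 0.222 ± 0.0893 FPKM in control and 0.108 ± 0.0499 in WTCPM mice (SD, n = 4 each), a log2 difference of -0.62 (SE 0.27) that did not pass (limma adjusted p = 0.894). Its exons overlap those of the mast cell tryptase gene Tpsg1 on the other strand. The mast cell tryptase gene Tpsb2 had 0.2498 ± 0.236 FPKM in control and 0.0233 ± 0.0465 in rosoxacin mice and was listed at 0 in all WTCPM and dexamethasone mice. Of 12 markers of mast cells, eosinophils and basophils 8 have an own identifier, and their summed level was 0.486 to 1.28 FPKM in control, 0.261 to 0.378 in WTCPM, 0.239 to 0.478 with rosoxacin and 0.435 to 0.632 with dexamethasone. Fcer1a and Prg2, which mark mast cells and eosinophils, were listed at 0 in all exposed mice. In control they had only 0.0314 ± 0.0628 and 0.0586 ± 0.117 FPKM. Other markers of the list went the other way. Gata1 had 0.161 FPKM in control, 0.202 in WTCPM, 0.0806 with rosoxacin and 0.284 with dexamethasone. Epx had 0.00229 FPKM in control and 0.00637 in WTCPM. Il5ra, Ccr3 and Mcpt8 had lower means in WTCPM than in control. The part of these cells, or of reads from Tpsg1, in the difference of Cacna1h was not tested.

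Smaller differences were found for Kcnn1 with a log2 difference of -0.40 (SE 0.25), Scn2a with 0.33 (SE 0.21), Kcnd3 with 0.31 (SE 0.21) and Scn8a with 0.43 (SE 0.33), all with adjusted p of 0.894 to 0.903. Of the 24 members 0 passed the adjusted threshold, as did 0% of all genes tested. At an unadjusted p under 0.05 there were 2 members, Cacna1h among them, against 5.13% of all genes. In no member were the 4 mice of each group fully apart, against 3.02% of all genes. The mean was higher after dust in 16 members and lower in 8, with a median log2 difference of 0.15, beside 53.4% of all genes higher and a median of 0.03. By class, all 4 tested sodium alpha and leak channel genes had a higher mean, by 0.04 to 0.43, as did 5 of 8 voltage-gated potassium alpha subunits and 3 of 4 potassium auxiliary subunits. Among the 8 is Kcnd2, which reached the level for a test only through the WTCPM group.

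**Figure D4:**
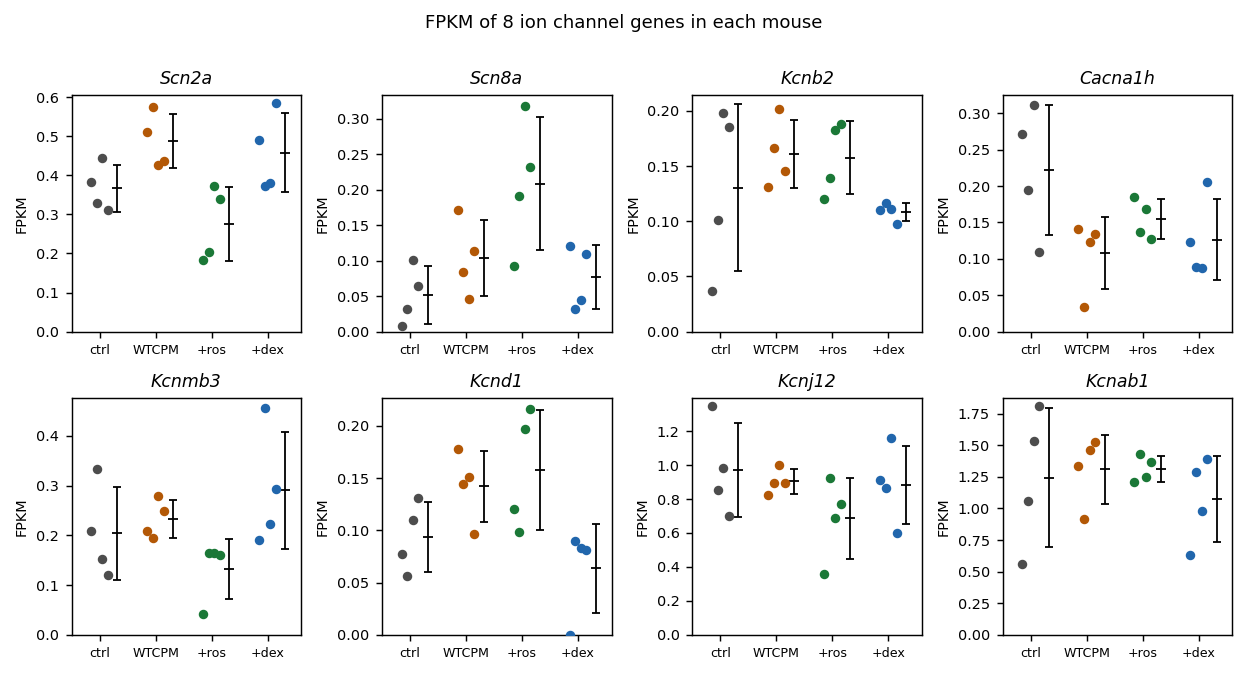
FPKM of 8 ion channel genes in each mouse (points), with the group mean and SD (n = 4) as a black bar beside the points; ctrl is control, +ros is dust with rosoxacin and +dex is dust with dexamethasone. The Scn2a points of the rosoxacin mice lie below all WTCPM points, and the Kcnb2 points of the dexamethasone mice lie below all WTCPM points.

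The second comparison, rosoxacin against WTCPM, had its largest member difference in a sodium channel. Scn2a (ENSMUSG00000075318.12, chr2:65620771-65767447, plus strand) had 0.511, 0.574, 0.427 and 0.438 FPKM in WTCPM mice and 0.184, 0.204, 0.372 and 0.340 in rosoxacin mice. All 4 rosoxacin mice lay below all 4 WTCPM mice, with rosoxacin mice 1 and 2 the lowest of all 16. The mean was 0.488 ± 0.0687 FPKM in WTCPM and 0.275 ± 0.0948 in rosoxacin mice, a log2 difference of -0.68 (SE 0.21) with a 95% interval of -1.13 to -0.23. It did not pass over all genes (limma adjusted p = 0.127). Control mice had 0.382, 0.328, 0.445 and 0.312 FPKM and dexamethasone mice 0.491, 0.374, 0.380 and 0.586, so that the rosoxacin mice also lay below every dexamethasone mouse and overlapped the controls.

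Kcnmb3 (ENSMUSG00000091091.2, chr3:32471588-32492231, minus strand) was the other gene without overlap, with 0.209, 0.196, 0.280 and 0.248 FPKM in WTCPM and 0.0422, 0.165, 0.165 and 0.160 in rosoxacin mice. Rosoxacin mouse 1 stood far below the other 3, and its value corresponds to 1.5 read pairs. The log2 difference was -0.55 (SE 0.28), with an adjusted p of 0.340. Scn8a (ENSMUSG00000023033.14, chr15:100869858-101045938, plus strand) went the other way. It had 0.171, 0.0844, 0.0454 and 0.114 FPKM in WTCPM and 0.0926, 0.191, 0.318 and 0.232 in rosoxacin mice, and the groups overlapped. Its log2 difference was 0.58 (SE 0.33) (adjusted p = 0.398). Scn8a reached the level for a test only through the rosoxacin group, so the filter favoured this direction. Kcnj12, Kcnj10 and Kcnab3 followed with -0.41 (SE 0.25), -0.37 (SE 0.24) and -0.40 (SE 0.30), and adjusted p of 0.437, 0.477 and 0.555. Rosoxacin mouse 1, the lowest of its group in Scn2a, Kcnmb3, Kcnj12 and Kcnab3, stood apart as a library. Its annotated genes summed to 802 FPKM, against 933 to 1119 in the other 15 mice, and its median-of-ratios size factor was 0.770, the lowest of 16, against 0.877 to 1.114. Without it the log2 difference was -0.55 for Scn2a (adjusted p = 0.256), -0.33 for Kcnmb3 (0.613), -0.17 for Kcnj12 (0.762) and -0.16 for Kcnab3 (0.847). Control mouse 1 had the next lowest size factor, at 0.877, against 1.03 to 1.10 in the other controls. It also had the fewest annotated genes above 0 of all mice, at 5283. This control mouse was the highest in Kcnj12 and Kcnn1 and the lowest in Kcnab1.

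Of the 24 members 0 passed in this comparison, against 0.546% of all genes tested. At an unadjusted p under 0.05 there was 1 member, Scn2a, against 15.7% of all genes, and 2 members did not overlap between the groups, against 11.1%. The median of all genes was itself lower in rosoxacin mice, by a log2 difference of -0.16, and relative to it Scn2a differed by -0.52, Kcnmb3 by -0.40 and Scn8a by 0.74. The direction of the members as a whole depended on the scaling, with 8 higher and 16 lower in the deposited FPKM, 3 and 21 after rescaling to TPM, and 14 and 10 after median-of-ratios scaling. The rosoxacin mice carry the S numbers 1 to 4 in the labels, the lowest of all mice. The meaning of this number is not given, and drug and S number cannot be told apart.

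**Figure D5:**
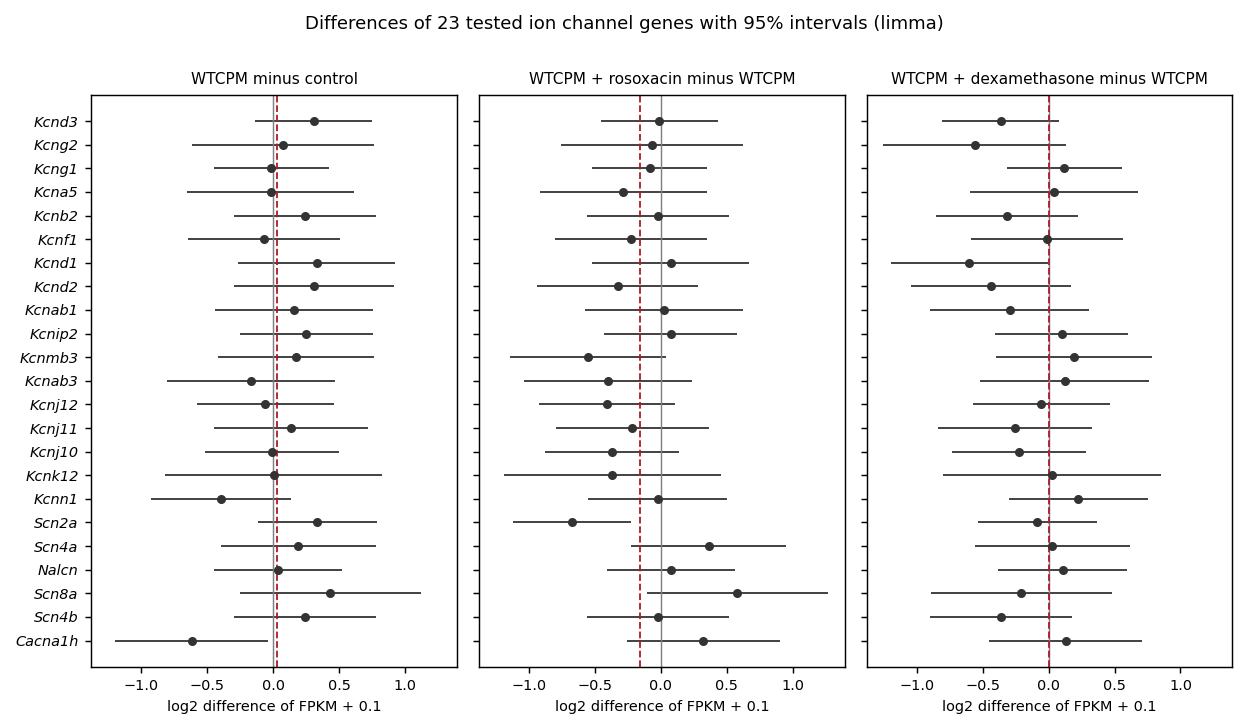
Log2 difference of FPKM + 0.1 for 23 of the 24 tested ion channel genes (points, with 95% intervals from limma) in WTCPM minus control, rosoxacin minus WTCPM and dexamethasone minus WTCPM, with the median of all 2749 tested genes as a dashed line. The interval of Scn2a lies wholly below 0 in the rosoxacin panel, and 0 of the 24 genes pass the adjusted threshold in any panel.

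The third comparison, dexamethasone against WTCPM, had its largest member difference in an A-type potassium channel. Kcnd1 (ENSMUSG00000009731.4, chrX:7822289-7838280, plus strand) had 0.178, 0.144, 0.151 and 0.0963 FPKM in WTCPM mice and 0, 0.0897, 0.0836 and 0.0811 in dexamethasone mice. All dexamethasone mice lay below all WTCPM mice, and dexamethasone mouse 1 was listed at 0. The log2 difference was -0.60 (SE 0.28) and did not pass (limma adjusted p = 0.911). Kcnb2, the delayed rectifier, was also without overlap, with 0.131, 0.166, 0.202 and 0.146 FPKM in WTCPM and 0.110, 0.116, 0.111 and 0.0973 in dexamethasone mice.

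Kcnd3 differed by -0.36 (SE 0.21), Kcng2 by -0.56 (SE 0.33), Kcnd2 by -0.44 (SE 0.29) and Scn4b by -0.36 (SE 0.26) on the log2 scale and every member had an adjusted p of at least 0.911. All 3 Kcnd genes thus had a lower mean with dexamethasone, and 6 of the 8 tested voltage-gated potassium alpha subunits did. Of all genes tested, 50.5% had a higher mean. Kcnd2 reached the level for a test only through the WTCPM group, so the filter favoured a lower mean with dexamethasone for it. Kcnd1 reached that level only through the rosoxacin group. Of the 24 members 0 passed, as did 0% of all genes tested. At an unadjusted p under 0.05 there were 2 members, Kcnd1 among them, against 5.38% of all genes, and 3 members did not overlap, against 4.07%. Over all 24 the mean was higher in 10 and lower in 14, with a median log2 difference of -0.07 beside 0.00 for all genes.

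The remaining comparisons reuse the same mice. In rosoxacin against control, Scn8a again had a higher mean with rosoxacin, the group through which alone it reached the level for a test. Its level was 0.00748, 0.0317, 0.101 and 0.0649 FPKM in control mice, set against the 4 rosoxacin values above. Control mouse 3 lay just above rosoxacin mouse 1, and the other mice were separate. The mean was 0.0514 ± 0.0408 FPKM in control and 0.208 ± 0.0937 in rosoxacin mice, a log2 difference of 1.01 (SE 0.33) that did not pass (limma adjusted p = 0.0971). In the fit without a filter on the mean its adjusted p was 0.164. With the S number of the labels as a covariate the difference of Scn8a was 0.50 and its adjusted p 0.753. The meaning of that number is not given and it cannot be told apart from the drug, so this fit does not separate them. Scn4a was the one member without overlap, with 0.182, 0.175, 0.128 and 0.165 FPKM in control and 0.189, 0.585, 0.282 and 0.187 in rosoxacin mice. Of the 24 members 0 passed, against 3.31% of all genes, 2 had an unadjusted p under 0.05 against 19.3%, and 1 did not overlap against 11.2%.

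In dexamethasone against control 0 members passed, against 0.0364% of all genes, and 0 had an unadjusted p under 0.05, against 4.98%. No member was without overlap, against 2.4% of all genes. The largest differences were -0.49 (SE 0.27) for Cacna1h and -0.49 (SE 0.33) for Kcng2. In rosoxacin against dexamethasone 0 members passed, against 4.26% of all genes. At an unadjusted p under 0.05 there were 5 members, against 20.7%, among them -0.59 (SE 0.21) for Scn2a, -0.75 (SE 0.28) for Kcnmb3, 0.79 (SE 0.33) for Scn8a and 0.68 (SE 0.28) for Kcnd1 as log2 differences. Scn8a and Kcnd1 reached the level for a test only through the rosoxacin group, so the filter favoured a higher mean there. In 5 members the groups did not overlap, against 13.1% of all genes, with Scn2a and Kcnmb3 lower and Kcnd1 and Kcnb2 higher in rosoxacin mice among them.

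The 31 members below 0.1 FPKM were examined in a fit without a filter on the mean, over 8288 genes. Of all 55 members 0 passed in each of the 6 comparisons, against 0.0241%, 0.145%, 0%, 0.193%, 0.0241% and 0.229% of all genes in the order above. Kcnu1 had 0.130 ± 0.0670 FPKM in control, 0.0825 ± 0.0890 in WTCPM, 0.0243 ± 0.0285 with rosoxacin and 0.0146 ± 0.01798 with dexamethasone. It was above 0 in all 4 control mice and in 2 mice of each drug group, every dexamethasone mouse lay below every control mouse, and the log2 difference of dexamethasone from control was -0.97 (SE 0.33) (limma adjusted p = 0.817). Cacna1g had 0.109 ± 0.0175 FPKM in control, 0.0506 ± 0.0428 in WTCPM, 0.0934 ± 0.0523 with rosoxacin and 0.0333 ± 0.0219 with dexamethasone, a log2 difference of -0.66 (SE 0.26) between dexamethasone and control mice (adjusted p = 0.984). The 4 control values of Cacna1g (0.0905 to 0.127 FPKM) lay above all WTCPM values (0 to 0.0883) and all dexamethasone values (0.0154 to 0.0638) and within the range of the rosoxacin values (0.0395 to 0.152). Separations of Kcnu1 and Cacna1g were picked out after their values were seen. The share of the 8288 genes without overlap was not determined, so these separations cannot be set against it. Cacna2d2, an auxiliary subunit of calcium channels, had 0.01805 ± 0.0113 FPKM in WTCPM and 0.0811 ± 0.0594 in rosoxacin mice, where mouse 4 alone had 0.170. Hcn4 varied least between mice, with 0.0967 ± 0.0190, 0.0885 ± 0.0243, 0.0953 ± 0.00874 and 0.0893 ± 0.0145 FPKM in the same order of groups.

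Related genes outside these families gave few values. Of 31 genes for channel partners 9 have an own identifier and 7 were tested (Dpp6, Lrrc52, Fgf13, Fgf14, Stac, Stac2 and Unc80), and 0 passed in any comparison. Fgf13, which binds sodium channels from inside the cell, had 0.148 ± 0.0843 FPKM in WTCPM and 0.382 ± 0.162 in rosoxacin mice, a log2 difference of 0.95 (SE 0.33, limma adjusted p = 0.166). Of 63 genes for other channels 20 have an own identifier and 4 were tested (Clcn1, Trpv3, P2rx2 and Cngb1). P2rx2, a cation channel opened by ATP, had 0.0365 ± 0.0435 FPKM in rosoxacin and 0.219 ± 0.0842 in dexamethasone mice, the group through which alone it reached the level for a test (0.0823 FPKM in the other 12 mice). The log2 difference was -1.25 (SE 0.33, limma adjusted p = 0.0468), in a comparison where 4.26% of all genes passed. In the fit without a filter on the mean its adjusted p was 0.0888, and over all alternatives, mice left out included, it ranged from 0.0105 to 0.3002. Markers of the cells that carry many of these channels were close to absent under their own names. Of 23 neuron markers 13 have an own identifier and none reached 0.1 FPKM, and their summed level was 0.145 to 0.703 FPKM in control, 0.0621 to 0.164 in WTCPM, 0.122 to 0.327 with rosoxacin and 0.0436 to 0.206 with dexamethasone. Nefl, Th and Chat were listed at 0 in all mice. Of 15 cardiac muscle markers 1 has an own identifier, Nppb, which was listed at 0 in all mice. The part of these cells in the levels of the channel genes was not tested.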

How the data were processed

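The authors deposited FPKM per transcript for 186512 transcripts in 32 libraries, 2 lanes from each of 16 mice. The build was mm10 and the tools were StringTie 2.1.5, HISAT2 2.2.1, HISAT, SAMtools 1.12, R 4.0.4 and FastQC, per the submitters' processing notes; the sources used here do not give their order, annotation or strand settings. FPKM of transcripts were summed per gene identifier and lanes averaged per mouse. Symbols, coordinates and overlaps came from GENCODE M21. Relative depth came from the FPKM steps of 19326 single-transcript genes; counts were not recovered (21.7% to 27.9% of low values within 0.02 of a whole read), so no count test was run. Groups were compared with limma 3.58.1 (R 4.3.3; linear fit, moderated with a mean trend) on log2(FPKM + 0.1) over 2749 annotated genes whose mean reached 0.1 FPKM, 4 groups in 1 fit, with Benjamini-Hochberg adjustment per comparison and a threshold of 0.05; the code was tested on simulated data. Members, classes and lists were chosen with earlier results of these data known. Named are, per comparison among the first 3, the 6 members with the smallest p, and the 3 most abundant per class; other named members, and all in the last 3 comparisons, were chosen after their values were seen; 1 member is part of the counts and is otherwise not reported here. Alternatives were other pseudocounts, filters and scalings, single lanes, inclusion of unnamed loci, no trend, 2 groups alone, the S number of the labels, a replicate block and each mouse left out. Figures used matplotlib 3.10.9 in Python 3.11.15.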

Additional observations from a re-analysis of the deposited data

Results flagged for a closer look

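In groups of 4 mice, a single mouse stood apart from the other 3 by Dixon's test in 15 of 140 groups over 35 members, and in 6 of the 92 groups of tested members. In 5 of the 15 the other 3 mice were all at 0, and the members include barely detected genes, so the rate of about 1 in 20 that chance gives cannot be set against these counts. Low single values in rosoxacin mice were 0.130 FPKM for Kcnip2 in mouse 3 and 0.0422 for Kcnmb3 in mouse 1, and Kcnn1 was high in rosoxacin mouse 1 at 0.228. In dexamethasone mouse 1 Kcnd1 was listed at 0 and Kcnj10 had 0.0711 FPKM, both below the other 3 mice. Cacna1h was low in WTCPM mouse 2 at 0.0341 FPKM.

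The other 9 cases were in members below 0.1 FPKM, where 1 mouse held a signal or lacked it. Cacna2d2 was high in rosoxacin mouse 4 at 0.170 FPKM and in dexamethasone mouse 2 at 0.0394. Kcnk4 was high in control mouse 4 at 0.107 and in rosoxacin mouse 4 at 0.0729. Cacng1 was above 0 in 1 mouse each of the control (0.0432), rosoxacin (0.0740) and dexamethasone (0.128) groups, and Cacna1f in 1 WTCPM mouse at 0.0190. Kcnk10 was listed at 0 in control mouse 3 and above 0 in the other controls.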

How the results depend on the processing

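The number of channel genes past the threshold was 0 in 81 of 84 values over 14 alternatives and 6 comparisons, and in all 96 values with 1 mouse left out (lowest 0, highest 0). The exceptions were 1 gene each. After rescaling to TPM, Scn2a passed in rosoxacin against WTCPM (log2 -1.04, limma adjusted p = 0.0185) and against dexamethasone (-0.90, adjusted p = 0.0257). That rescaling moved the median of all genes from -0.16 to -0.46 and from -0.15 to -0.41, and raised the genes called from 15 to 270 and from 117 to 310. With the unnamed loci included, Scn8a, which reached the level for a test only through the rosoxacin group, passed in rosoxacin against control (1.01, adjusted p = 0.0341); the added features changed only the adjustment and the shared spread. Over the other alternatives the adjusted p of Scn2a against WTCPM reached 0.314 and that of Scn8a against control 0.753. Among 18 named differences 0 of 540 values changed sign, and 1 of 26 mean levels moved by over 1 SD (Hcn4 under TPM, 0.109). With 1 mouse left out the genes called ranged from 2 to 24, 11 to 122 and 14 to 162 in rosoxacin against WTCPM, control and dexamethasone. The replicate numbers did not meet the rule for pairing, a correlation over 0.1 in every pair: deviations of the 24 same-numbered pairs correlated at -0.156 to 0.304 (median 0.027), those of 72 other pairs at -0.195 to 0.162 (median 0.0034), and 7 of 16 mice correlated best with their own number. With a replicate block the number of members called stayed 0 in all 6 comparisons, and the genes called in these 3 comparisons were 15, 85 and 103 against 15, 91 and 117. The few read pairs per gene limit what can be seen below 0.1 FPKM and in the tested genes as well. Kcnmb3 rested on 7.91 pairs per mouse and Kcnk12 on 16.1.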
